A study of Mus musculus with 24 samples.

Results

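The comparison described here set ID8 cells given 100 IU/ml of interferon (IFN) epsilon for 3 h, in replicates 1, 2 and 3, against untreated ID8 cells of the same 3 replicates. The members were chosen by their sample titles: 6 samples on 9 arrays, with 3 treated samples on 1 array each and 3 untreated samples on 2 arrays each, out of 21 samples on 24 arrays in the whole series. ID8 is a mouse ovarian cancer line derived from ovarian surface epithelium and grown as 1 line in medium with foetal calf serum. Treated cells received recombinant murine IFN epsilon, and untreated cells received phosphate-buffered saline, the vehicle. Wells of a treatment were pooled, and each replicate number stands for its own date, so a treated sample was paired with the untreated sample of its number. Other groups used below are cells given 10 IU/ml IFN epsilon (3 samples), 1000 IU/ml IFN epsilon (3 samples) and 100 IU/ml IFN beta (2 samples), all for 3 h.

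IFN epsilon is a type I interferon that the epithelium of the female reproductive tract makes constitutively, under hormonal control and without the need of an infection. Like IFN beta it binds the receptor chains Ifnar1 and Ifnar2, whose kinases Jak1 and Tyk2 phosphorylate STAT proteins, Stat2 among them. These join Irf9 in a complex that binds the interferon-stimulated response element (ISRE) in the promoters of interferon-stimulated genes, which block virus growth, present antigen and tune the signal itself.

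A level below is log2 of an array's processed signal minus the 75th percentile of that array, so a level of 0 is that percentile. A difference is the level in treated cells minus that in untreated cells, given as a log2 value ± SE from limma with the replicate number as a block, and a gene was called at an adjusted p under 0.05. Depth on an array is signal over background: 48.1% to 53.9% of probes were well above background on the 9 arrays, no spot was saturated, and the median 95% confidence interval of a difference reached 0.24 to either side. All 8 epithelial and mesothelial markers (Krt7, Krt8, Krt18, Krt19, Epcam, Msln, Wt1, Upk3b) were well above background on all 9 arrays, with Epcam at -5.07 in treated and -4.64 in untreated cells. All 4 mesenchymal markers (Vim, Fn1, Col1a1, Acta2) were too. Of 11 leukocyte markers Itgam (1.25 in treated and 1.27 in untreated cells), Cd3e, Cd4 and Csf1r were above background on all 9 arrays and 7, Ptprc, Lyz2 and Adgre1 included, on none of them, and of these 3 marker sets no measured gene was called between the groups.

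At 100 IU/ml IFN epsilon the called genes were mostly higher, led by antiviral effectors and interferon-inducible GTPases. Of 14425 genes tested, limma called 210 higher in treated cells (1.46% of those tested) and 15 lower (0.104%). Among the 210 higher genes the fitted difference was at least 2-fold in 174, at least 4-fold in 102 and at least 16-fold in 31. Its median was 1.96, while the median of all genes tested was -0.06. These counts include 9 genes well above background on 0 untreated arrays, whose bounds can be lower. Tnfsf10, for example, has a fitted 27.7-fold and a bound of 13.6-fold. None of the 15 lower genes fell 2-fold. All 210 higher and all 15 lower genes, called from these pairs, moved the same way in 3 of 3, and in 199 of the 210, but in 6 of the 15, the treated and untreated samples did not overlap. Over all genes tested 6.71% did not overlap, 469 genes with every treated sample higher and 499 with every treated sample lower. Of the higher genes 202 were protein-coding, 7 were long non-coding RNAs and 1 was a transcribed pseudogene. Of the higher genes 187 were well above background on all 6 untreated arrays, 9 were so on 0 and 14 on 1 to 5. Without the replicate block 151 genes were called higher (1.05%), of which 149 were among the 210, and 0 were called lower. At an unadjusted p under 0.05 limma had 1700 genes with the block and 472 without it, in both directions together. With the 2 IFN beta arrays that the labels mark as excluded put back into the fit, 40 genes were called higher and 1 lower. Without replicate 1 the counts were 175 higher and 6 lower, without replicate 2 they were 120 and 1, and without replicate 3 they were 126 and 1. Of the 64 called genes taken by the naming rule, 15 kept their call under all 15 alternatives tried: Cmpk2, Ddx60, Dhx58, Ifit1, Ifit3, Ifit3b, Irf7, Isg15, Oas2, Oas3, Parp14, Parp9, Trim30d, Usp18 and Xaf1.

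**Figure D1:**
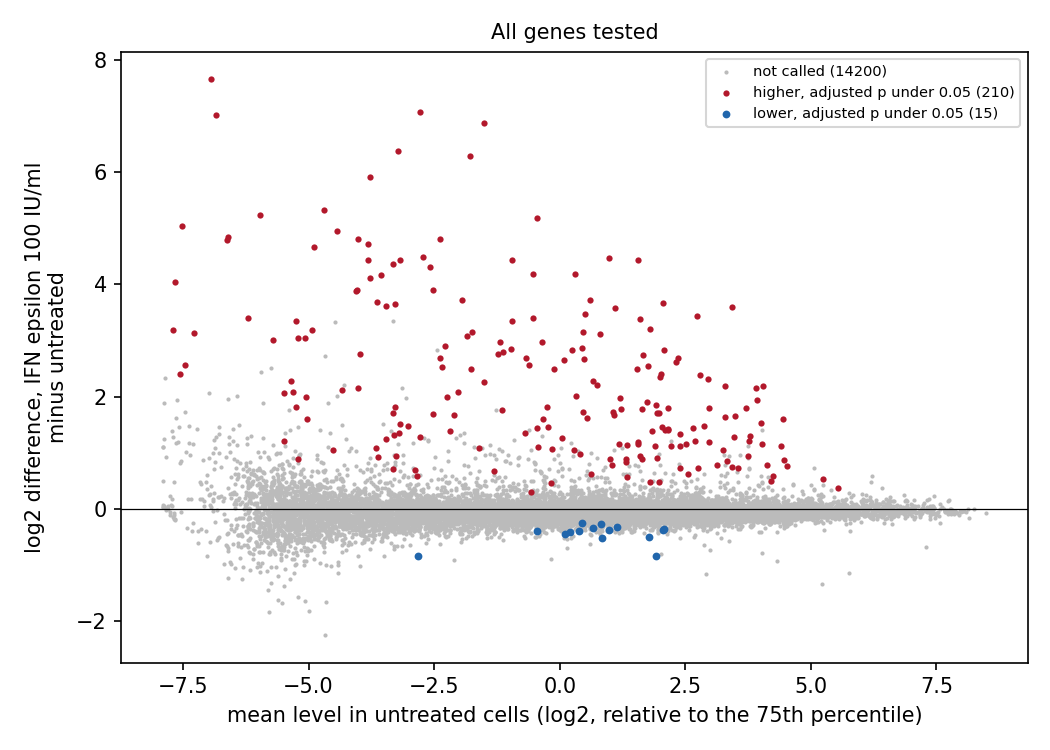
Each point is 1 of 14425 genes, placed by its mean level in untreated cells (x axis, log2 relative to the array's 75th percentile) and by the log2 difference, 100 IU/ml IFN epsilon minus untreated (y axis). The fitted differences of the 210 genes called higher reach 7.66 (Iigp1), and those of the 15 called lower lie between -0.84 and -0.25. For 9 of the higher genes, Iigp1 among them, no untreated array was well above background, so the rise is known only as a bound.

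Antiviral effectors, the proteins that act on virus growth directly, rose broadly. Of 47 genes on this list 42 were measured, which here means on the array and past the filter on dim probes, and of these 35 (83.3%) rose and 0 fell, with a median difference of 2.37 (31 rose without the block). Ifit3, a member of the family of interferon-induced proteins with tetratricopeptide repeats that bind viral RNA, had levels of 4.04, 5.69 and 6.36 in treated cells, against -2.0, -2.54 and 0.0016 in untreated cells. Every treated sample lay above every untreated sample, and the difference was 6.87 ± 0.52 (117-fold, limma adjusted p = 6.6e-06). Ifit3b, of the same gene cluster, at 2.90, 4.62 and 5.32 in treated cells against -3.31, -3.87 and -1.19 in untreated cells, rose by 7.07 ± 0.51. The sequences of this pair are close, so their signals may not be separable. Ifit1, which binds the 5′ end of foreign RNA, stood at 3.15, 5.17 and 5.17 in treated cells and at -2.38, -2.50 and -0.49 in untreated cells, and rose by 6.29 ± 0.42. In each of these 3 genes replicate 1 had the lowest treated level and replicate 3 the highest untreated level.

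Cmpk2, a mitochondrial nucleotide kinase, and Rsad2 (viperin), which makes a nucleotide that stops viral RNA synthesis, are head-to-head neighbours on chromosome 12. Cmpk2 had 1.94, 3.80 and 3.72 in treated cells, against -3.24, -3.70 and -2.72 in untreated cells, a difference of 6.37 ± 0.51. Rsad2 had -0.47, 3.61 and 3.26 in treated cells, against -4.28, -4.19 and -2.86 in untreated cells. It rose by 5.91 ± 0.70, and its 3 paired differences of 3.81, 7.80 and 6.12 were among the most uneven of the called genes. Oas3 and Oas2 sense double-stranded RNA and make oligoadenylates. Oas3 stood at 0.65, 0.67 and 0.24 in treated cells and at -4.46, -4.71 and -4.15 in untreated cells (4.96 ± 0.28, adjusted p = 3.06e-06), and Oas2 rose by 4.82 ± 0.32. Isg15, the ubiquitin-like protein joined to other proteins in interferon-treated cells, had 6.67, 7.03 and 7.41 in treated cells, against 3.36, 2.59 and 4.37 in untreated cells, and rose by 3.6 ± 0.24. Ifit1bl1 was well above background on 0 of 6 untreated arrays and on all 3 treated arrays, so its rise is a bound of at least 54.6-fold (adjusted p = 0.0003). Bounds here set the treated mean against the lowest signal that counts as well above background, or the gene's own signal where that is higher. An adjusted p beside a bound tests the unbounded difference, and the bound itself was not tested. Genes with a bound passed the filter on dim probes only through interferon-treated groups. Apobec3 (0.76), Nt5c3 (0.72), Ifit1bl2 (0.24), Ifitm1 (0.18) and Ifi27 (0.04) did not pass.

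The promoters of the leading genes were searched for the ISRE letters GAAANNGAAA and for the letters TTCNNNGAA of the gamma-activated site (GAS). Both strands of the RefSeq windows of 250 bases before to 50 after each annotated start (GRCm38.p6) were read. Of the 210 higher genes 166 had a window. An ISRE match stood in 61 of these 166 genes (36.7%), in 0 of the 14 lower genes with a window, in 354 of 11241 other genes tested (3.1%) and in 3.44% of all 32851 windows. Among higher genes the share was 51.3% of 76 genes with a difference of 2 or more, 32.8% of 58 with a difference of 1 up to 2, and 9.4% of 32 with a smaller one. A GAS match stood in 23 of the 166 higher genes (13.9%), in 2 of the 14 lower genes (14.3%), in 8.3% of the other genes and in 8.3% of all windows, and in 4 of the 217 windows of higher genes the GAS and ISRE matches overlapped. These are matches of letters, and binding was not measured. The bases before the start of 8 higher genes with a match are shown 5′ to 3′ on the gene's strand, with the ISRE matches in capitals, as examples of where the letters lie.
Ifit1 (chr19:34640739-34640888, plus strand): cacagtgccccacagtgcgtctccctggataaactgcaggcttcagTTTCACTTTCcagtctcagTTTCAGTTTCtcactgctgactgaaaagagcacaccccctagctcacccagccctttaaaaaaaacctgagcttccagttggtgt
Ifit3 (chr19:34583379-34583528, plus strand): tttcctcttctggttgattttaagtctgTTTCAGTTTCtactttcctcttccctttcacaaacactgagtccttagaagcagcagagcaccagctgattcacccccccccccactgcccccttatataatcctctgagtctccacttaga
Isg15 (chr4:156200819-156200968, minus strand): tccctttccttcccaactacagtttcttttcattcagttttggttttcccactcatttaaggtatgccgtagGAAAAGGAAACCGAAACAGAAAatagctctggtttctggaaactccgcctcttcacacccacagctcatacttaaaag
Rsad2 (chr12:26456453-26456602, minus strand): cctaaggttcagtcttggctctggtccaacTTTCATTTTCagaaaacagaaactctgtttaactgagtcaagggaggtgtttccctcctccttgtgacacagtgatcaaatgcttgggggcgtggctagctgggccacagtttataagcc
Oas3 (chr5:120777660-120777809, minus strand): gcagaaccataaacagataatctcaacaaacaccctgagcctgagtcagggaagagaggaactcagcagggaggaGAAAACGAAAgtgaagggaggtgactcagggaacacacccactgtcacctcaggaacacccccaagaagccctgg
Gbp2 (chr3:142620513-142620662, plus strand): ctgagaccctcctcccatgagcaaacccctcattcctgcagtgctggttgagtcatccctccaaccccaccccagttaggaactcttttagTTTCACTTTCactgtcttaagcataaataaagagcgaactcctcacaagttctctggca
Cxcl10 (chr5:92348890-92349139, minus strand): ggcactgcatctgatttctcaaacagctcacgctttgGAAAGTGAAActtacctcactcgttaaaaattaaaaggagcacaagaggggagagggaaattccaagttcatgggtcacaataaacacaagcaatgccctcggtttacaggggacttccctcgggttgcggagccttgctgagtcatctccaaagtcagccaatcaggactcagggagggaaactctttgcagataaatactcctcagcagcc
Gbp5 (chr3:142496684-142496933, plus strand): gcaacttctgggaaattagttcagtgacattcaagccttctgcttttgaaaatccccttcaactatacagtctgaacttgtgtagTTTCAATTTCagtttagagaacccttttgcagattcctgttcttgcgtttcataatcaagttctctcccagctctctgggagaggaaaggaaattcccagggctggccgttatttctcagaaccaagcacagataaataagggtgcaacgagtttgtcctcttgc
In Ifit1 the 2 matches begin 104 and 85 bases before the start, in Isg15 3 overlapping matches begin 78, 72 and 66 bases before it, and in Rsad2 the match begins 120 bases before it. Cmpk2 rose as much as Ifit1 yet its own window holds no match, and Zfp799, the gene with the largest fall, is given for contrast.
Cmpk2 (chr12:26468965-26469214, plus strand): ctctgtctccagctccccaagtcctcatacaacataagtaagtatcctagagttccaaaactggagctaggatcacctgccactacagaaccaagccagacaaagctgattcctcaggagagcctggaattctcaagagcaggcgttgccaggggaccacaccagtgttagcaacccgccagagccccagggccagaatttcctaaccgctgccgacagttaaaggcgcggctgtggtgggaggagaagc
Zfp799 (chr17:32830262-32830511, minus strand): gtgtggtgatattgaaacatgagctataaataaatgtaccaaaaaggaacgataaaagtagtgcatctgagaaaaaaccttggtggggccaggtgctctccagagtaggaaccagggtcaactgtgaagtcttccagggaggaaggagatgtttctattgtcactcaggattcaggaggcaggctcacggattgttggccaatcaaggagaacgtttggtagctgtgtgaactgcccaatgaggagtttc

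**Figure D2:**
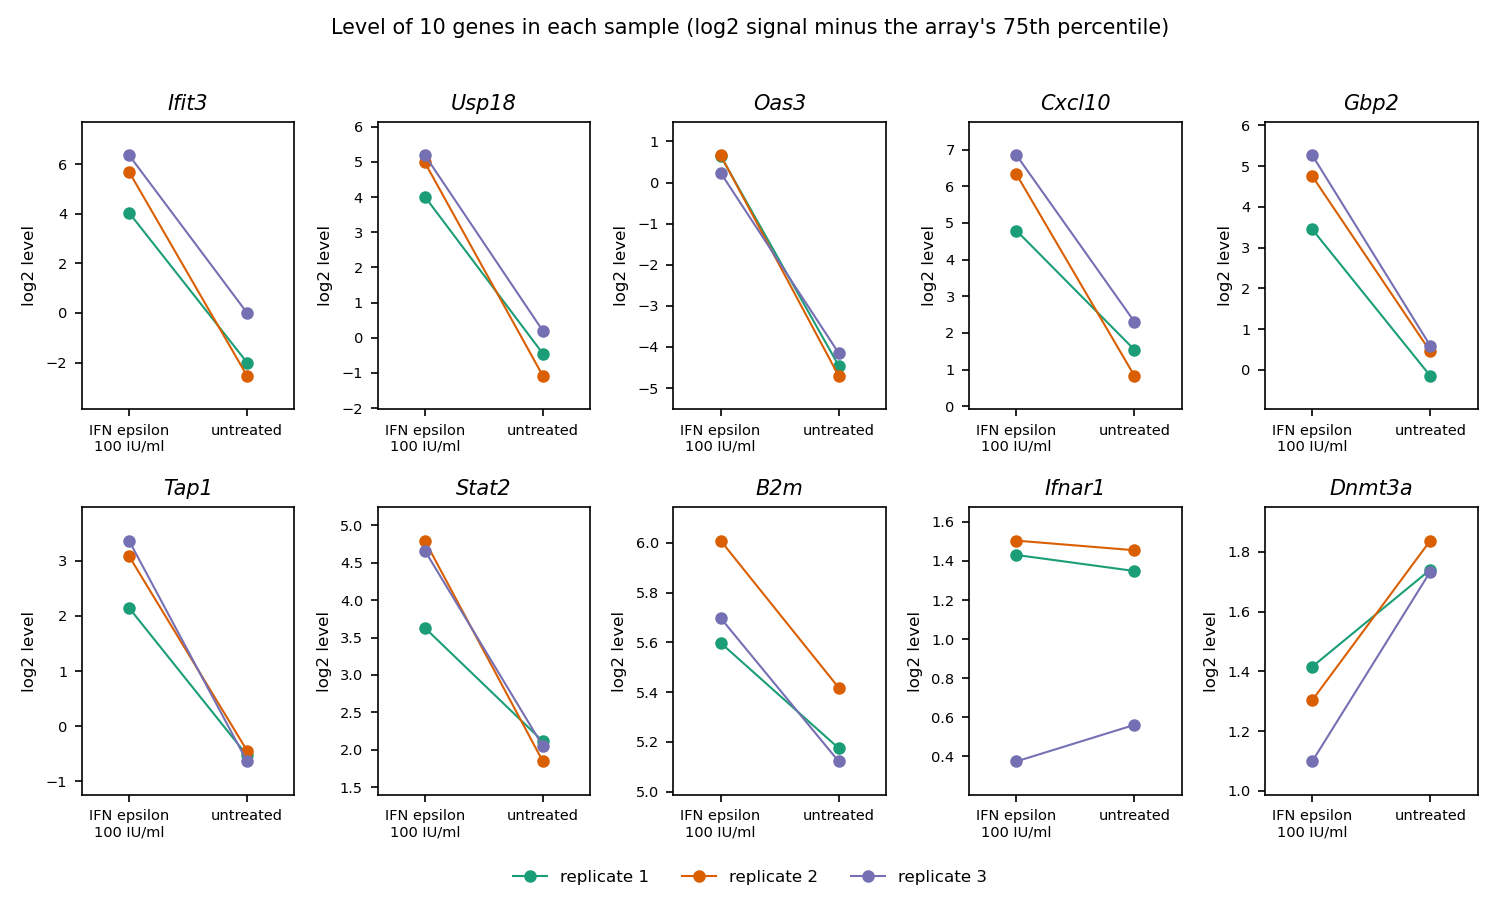
Level of 10 genes (log2 signal minus the array's 75th percentile) in each 100 IU/ml IFN epsilon sample, left, and in each untreated sample, right, with lines joining samples of 1 replicate. In Ifit3, Usp18, Oas3, Cxcl10, Gbp2, Tap1, Stat2 and B2m every treated sample lies above every untreated sample, Ifnar1 overlaps, and Dnmt3a lies lower in all 3 treated samples.

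Several receptors and helicases that sense foreign nucleic acid rose, and 4 of the adaptors behind them were not called. Of 20 measured members 12 rose (60%, against 1.46% over all genes tested) and 0 fell (9 rose without the block), with a median difference of 1.39. Zbp1, a sensor of Z-form nucleic acids that can start necroptosis, had 0.80, 1.08 and 1.90 in treated cells, against -2.75, -4.15 and -2.63 in untreated cells, and rose by 4.44 ± 0.39. Dhx58 (LGP2), a regulator of the RNA sensors, stood at 1.14, 1.49 and 1.54 in treated cells and at -2.35, -2.92 and -2.29 in untreated cells (3.91 ± 0.23). The helicase Ddx60 rose by 3.62 ± 0.29, the endosomal receptor Tlr3 by 3.35, Ifih1 (MDA5) by 2.86, Ddx58 (RIG-I) by 2.40 and the DNA sensor Cgas by 0.90. Cgas lost its call without the block (adjusted p = 1). The adaptors had differences of -0.17 (Mavs), 0.08 (Sting1), -0.19 (Ticam1) and 0.98 (Myd88).

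Interferon-inducible GTPases, which attack the vacuoles of intracellular pathogens, had the highest median of the 22 lists examined, 3.58. Of 19 measured members 15 were higher (78.9%, against 1.46% over all genes tested), 13 of them without the block, and 0 were lower. Iigp1 was well above background on 0 untreated arrays and reached -0.60, 1.39 and 1.37 in treated cells, a rise of at least 78.9-fold (adjusted p = 7.29e-05 for the unbounded difference). Gbp5 had -0.41, 0.99 and 1.34 in treated cells, against -5.05, -4.71 and -4.32 in untreated cells, and rose by 5.33 ± 0.55. Gbp7 (4.48 ± 0.30) and Gbp2 (4.19 ± 0.44) rose as well, Gbp2 to 3.45, 4.75 and 5.27 in treated cells, against -0.15, 0.45 and 0.59 in untreated cells. Gm12250, which encodes the immunity-related GTPase Irgb10, rose by 4.84 ± 0.76 but was well above background on 1 of 6 untreated arrays only. Gbp10 (2.01), Gbp8 (1.09) and 2 relatives known by clone names were not called, and cross-hybridisation within the Gbp family cannot be told apart from expression of each member.

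All 16 measured members of the list of Isg15 conjugation and antiviral Trim proteins rose (15 without the block), with a median of 2.88. Usp18, which removes Isg15 from proteins and shuts down receptor signalling, had 4.01, 4.99 and 5.19 in treated cells, against -0.45, -1.08 and 0.20 in untreated cells, and rose by 5.18 ± 0.29 (adjusted p = 3.06e-06). The activating enzyme Uba7 rose by 2.27, the conjugating enzyme Ube2l6 by 1.98 and the ligase Herc6 by 3.34. Trim30d (4.82 ± 0.30) and Trim30a (4.72 ± 0.33) led the Trim proteins, and the 2 are near-identical, so each may hold signal of the other. Trim30a stood at 0.67, 1.20 and 0.83 in treated cells and at -3.98, -3.61 and -3.88 in untreated cells, one of the narrowest sets of paired differences among genes that rose at least 2-fold.

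Of 10 measured Parp proteins with Dtx3l, 7 rose (70%, against 1.46% over all genes tested) and the median was 1.77. Parp14, a mono-ADP-ribosyltransferase, had 2.67, 3.71 and 4.07 in treated cells, against -0.96, -1.10 and -0.80 in untreated cells, and rose by 4.44 ± 0.30. Its neighbours Dtx3l, a ubiquitin ligase (2.83 ± 0.25), and Parp9, the partner of Dtx3l (2.66 ± 0.19), rose with it. Parp3 (0.90), Parp8 (0.42) and Tiparp (-0.02) were not called.

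In the signalling pathway itself some transcription factors rose, and the receptor chains and kinases were not called. Factors not called included Irf1 (0.48), Irf2 (0.86), Irf3 (-0.09), Irf5 (0.78), Stat3 (0.11) and Stat6 (-0.11). Of 21 measured members of the receptor, JAK-STAT and IRF list 6 rose (28.6%, against 1.46% over all genes tested) and 0 fell, with a median of 0.33. Ifnar1 had 1.43, 1.5 and 0.37 in treated cells, against 1.35, 1.45 and 0.56 in untreated cells, a difference of -0.02 with a 95% confidence interval of -0.24 to 0.20. Ifnar2 differed by 0.05 (-0.13 to 0.22), although its probes did not all have the same sign, and Jak1 (-0.07) and Tyk2 (-0.13) were not called either. Stat2 rose by 2.36 ± 0.23 and Irf9 by 1.46 ± 0.15. Irf7, the factor that amplifies interferon production, rose most, to 5.84, 6.11 and 6.53 in treated cells, against 2.76, 2.01 and 3.41 in untreated cells (3.43 ± 0.23). Of the interferon genes themselves 4 of 11 were measured and limma called none of them, with 0 at an unadjusted p under 0.05.

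Batf2, a transcription factor, had -1.67, -0.38 and -1.42 in treated cells, against -3.49, -3.83 and -6.13 in untreated cells, and it passed only without the block (adjusted p = 0.0377, against 0.0585 with it). Of 17 negative regulators 3 rose (17.6%, against 1.46% over all genes tested): Usp18, Parp11, which modifies the receptor pathway (1.05 ± 0.22), and Usp25, a deubiquitinating enzyme (0.89 ± 0.15). Socs1, the inhibitor of Jak kinases, had -1.71, -0.70 and 0.18 in treated cells, against -2.06, -2.06 and -1.60 in untreated cells. The groups overlapped, and the difference of 1.17 ± 0.50 was not called (adjusted p = 0.39).

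In MHC class I presentation the peptide transporter, immunoproteasome subunits and some heavy chains, mostly H2-T, rose. Of 26 measured members 12 rose (46.2%, against 1.46% over all genes tested) and 0 fell (8 rose without the block), with a median of 0.99. Nlrc5, the transactivator of class I genes, had -0.47, 1.09 and 0.47 in treated cells, against -3.25, -2.81 and -3.78 in untreated cells, and rose by 3.65 ± 0.43. Tap1, a subunit of the peptide transporter, stood at 2.15, 3.09 and 3.37 in treated cells and at -0.53, -0.44 and -0.64 in untreated cells (3.40 ± 0.30), and its partner Tap2 rose by 1.70. The immunoproteasome subunits Psmb9 (2.69 ± 0.39), Psmb8 (2.21) and Psmb10 (1.27) rose too. Tap2 and Psmb10 lost their call without the block (adjusted p = 0.0573 and 0.474). Of the other genes that trim or load peptides Tapbp (tapasin) rose by 0.87, a call lost without the block (limma adjusted p = 0.142). Tapbpl (1.14), Erap1 (0.50), Psme1 (0.43), Calr, Canx and Pdia3 were not called. B2m, the light chain, had 5.6, 6.01 and 5.70 in treated cells, against 5.17, 5.42 and 5.12 in untreated cells. Its rise of 0.53 ± 0.12 passed with the block (adjusted p = 0.0451) and not without it (0.156). The heavy chain H2-K1 had 5.72, 5.99 and 5.65 in treated cells, against 5.16, 5.51 and 4.49 in untreated cells, groups that did not overlap, and its difference of 0.73 ± 0.17 missed the threshold (adjusted p = 0.0733). On this list the heavy chains called were H2-T10 (1.72), H2-T22 (1.71), H2-T24 (1.04) and H2-T23 (1.04). H2-M3 (1.09), H2-Q7 (0.95) and H2-D1 (0.91) were among those not called. Outside the list, H2-Q8 was called higher (1.11, limma adjusted p = 0.0164). The H2 genes are similar in sequence, so single members are uncertain. Of 11 measured MHC class II genes 1 rose (9.09%), Rfx5 (0.93 ± 0.19), a factor that also binds class I promoters. The call of Rfx5 was lost without the block (limma adjusted p = 0.0745). Ciita, the class II transactivator, had a difference of 1.96, Cd74 one of -0.17 and H2-Ab1 one of 0.38, and none of them was called.

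**Figure D3:**
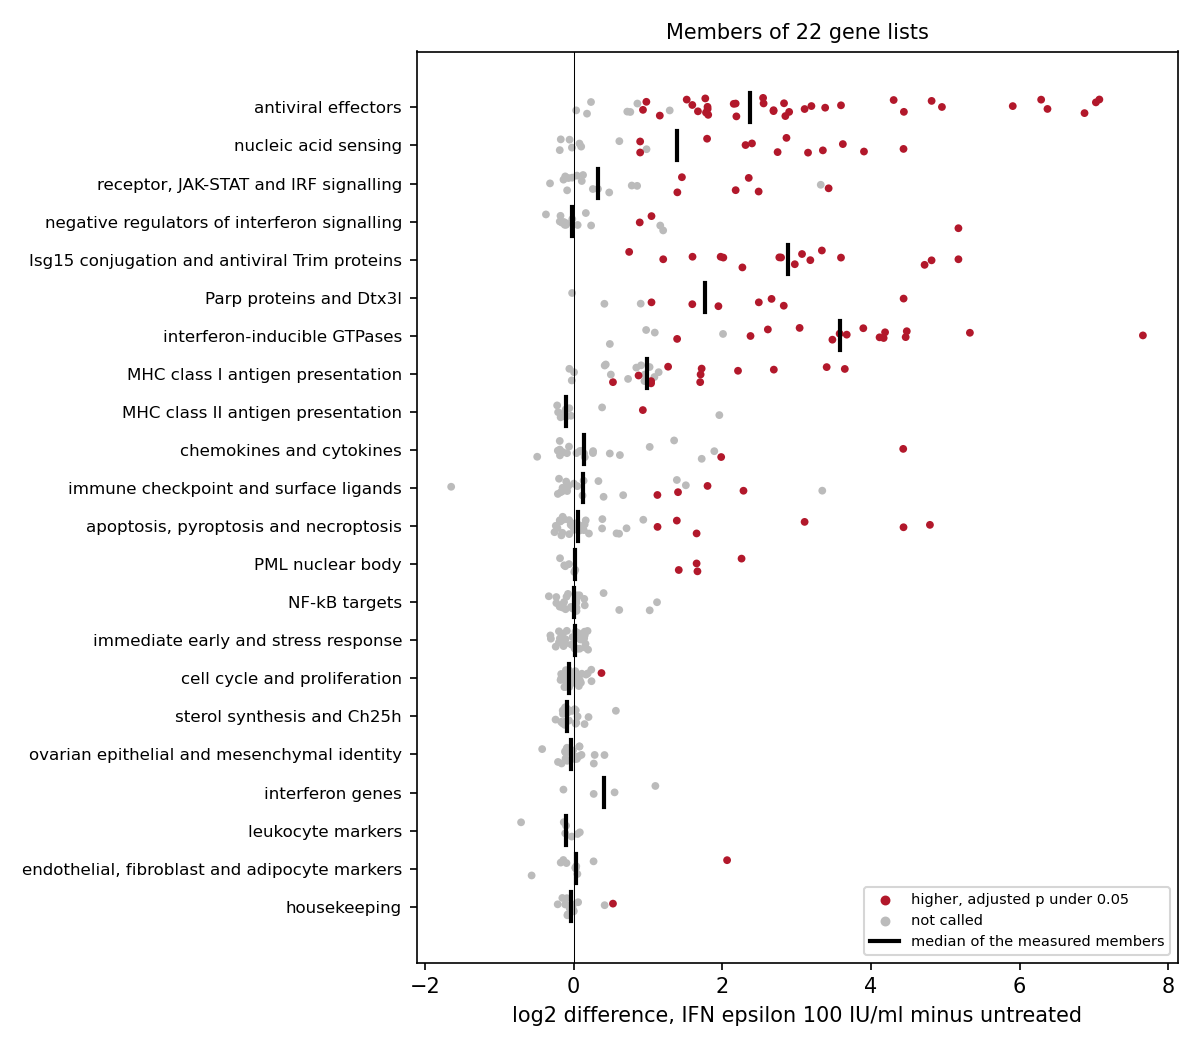
Each point is a measured member of 1 of 22 gene lists, placed by its log2 difference, 100 IU/ml IFN epsilon minus untreated, in red where called higher and grey where not, with the list's median as a bar. The antiviral, Isg15 and Trim, and GTPase lists have medians of 2.37, 2.88 and 3.58, and the NF-kB, immediate early, cell cycle and sterol lists lie near 0.

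Most measured genes of the chemokine, cytokine and surface ligand lists were not called. The shares that rose, 8.7% of chemokines and cytokines and 17.4% of surface ligands, compare with 1.46% over all genes tested. Of 23 measured chemokines and cytokines 2 rose: Cxcl10, which attracts T cells, and Il18bp, which neutralises IL-18. Cxcl10 had 4.79, 6.33 and 6.85 in treated cells, against 1.54, 0.83 and 2.30 in untreated cells, and rose by 4.43 ± 0.42 (21.6-fold). Il18bp rose by 1.99 ± 0.38, and Il7, which passed only without the block, was well above background in neither group. The chemokines Ccl5, Ccl2, Cxcl9 and Cxcl16 were among those not called. Of 23 surface ligands 4 rose: Ly6a (2.29 ± 0.44, well above background on 4 of 6 untreated arrays), Bst2 (tetherin, 1.80 ± 0.15), Lgals9 (galectin 9, 1.41 ± 0.19) and Ly6e (1.13). Ly6a and Lgals9 lost their call without the block, with adjusted p of 0.185 and 0.0525. Cd274, the gene of the checkpoint ligand PD-L1, had -2.27, 0.67 and 1.67 in treated cells, against -3.28, -3.44 and -3.25 in untreated cells. Every treated sample was above every untreated sample, and the difference of 3.35 ± 0.82 was not called (adjusted p = 0.0787).

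Of 39 measured cell death genes 6 rose (15.4%, against 1.46% over all genes tested) and 0 fell (4 rose without the block, with Daxx and Casp4 not called). Tnfsf10, which encodes the death ligand TRAIL, was well above background on 0 untreated arrays and reached -3.66, -1.33 and -0.48 in treated cells, a rise of at least 13.6-fold (adjusted p = 0.000732 for the unbounded difference). Xaf1, an antagonist of the caspase inhibitor Xiap, had 3.68, 3.89 and 4.16 in treated cells, against 0.75, -0.05 and 1.70 in untreated cells (3.11 ± 0.26). Zbp1, Daxx, the inflammatory caspase Casp4 (1.39) and Mlkl (1.13), which perforates the membrane in necroptosis, were the others. The TRAIL receptor Tnfrsf10b (-0.15), Casp8 (-0.01) and the Bcl2 family members listed were not called. In the PML nuclear body 4 of 10 genes rose (40%): Sp100 (2.26 ± 0.16), Sp140 (1.67 ± 0.35), Daxx (1.66 ± 0.29) and Pml (1.42). Sp140 and Daxx lost their call without the block (adjusted p = 0.0727 and 0.0963).

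Of the 210 higher genes 116 were in at least 1 of the 22 lists and 94 in none. Csprs led the others, with -1.52, 0.12 and -0.83 in treated cells, against -5.57, -5.05 and -7.30 in untreated cells, where 3 of 6 arrays had it well above background (5.23 ± 0.54). Gm4951 rose at least 8.65-fold and Gm7609 at least 3.89-fold, each from below background. Lmo2, a transcriptional adaptor known from blood stem cells, rose at least 2.72-fold, and its call was lost without the block (adjusted p = 0.146). Lgals3bp, a secreted galectin ligand (1.47 ± 0.16), had nearly the same difference on each date, as had Tdrd7, a Tudor domain protein of the antiviral list (1.77 ± 0.11). Tmem140 had 1.03, 3.52 and 3.69 in treated cells, against -0.03, 0.51 and -0.20 in untreated cells, one of the widest spreads (2.65 ± 0.49, adjusted p = 0.44 without the block). Misp (3.40 ± 0.73, on 3 of 6 untreated arrays well above background, adjusted p = 0.14 without the block) and Cstdc5 (at least 2.12-fold) were among the widest too.

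Lists for other programmes showed few or no calls. None of 26 NF-kB targets, 29 immediate early and stress genes, 23 genes of sterol synthesis with Ch25h, 24 genes of ovarian epithelial and mesenchymal identity or 7 leukocyte markers was called by limma, and their medians lay between -0.10 and 0.02. At an unadjusted p under 0.05 these lists had 3, 1, 0, 1 and 1 genes, in that order, against 1700 of all 14425 genes tested. Of 34 cell cycle genes 1 rose, Mcm6, a subunit of the replicative helicase (0.38 ± 0.08), and of 17 housekeeping genes 1, B2m. These shares, 2.94% and 5.88%, compare with 1.46% over all genes tested. Among 10 endothelial, fibroblast and adipocyte markers 1 rose (10%), Fap (2.07 ± 0.35, well above background on 4 of 6 untreated arrays), a protease gene that lies next to Ifih1. Mcm6 and Fap lost their call without the block (adjusted p = 1 and 0.179). The leukocyte gene Trem1, a receptor of myeloid cells, had -0.74, -0.32 and -0.65 in treated cells, against -0.03, 0.32 and 0.13 in untreated cells, and its difference of -0.71 ± 0.18 was not called (adjusted p = 0.0836).

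The 15 falls were small, between -0.84 and -0.25 with a median of -0.40, and belonged to none of the 22 lists. Zfp799, a zinc finger gene, had -3.63, -3.35 and -4.03 in treated cells, against -2.92, -2.37 and -3.20 in untreated cells, and fell by 0.84 on the log2 scale (SE 0.17, adjusted p = 0.0211). Srgap1, an activator of GTP hydrolysis by small GTPases, had 0.58, 1.33 and 1.31 in treated cells, against 1.49, 2.28 and 1.98 in untreated cells (-0.84 ± 0.19). Dnmt3a, a de novo DNA methyltransferase, stood at 1.42, 1.3 and 1.1 in treated cells and at 1.74, 1.84 and 1.73 in untreated cells (-0.50 ± 0.09), and its other probe had the opposite sign. Ak4, a mitochondrial adenylate kinase, had -0.76, -0.24 and -1.53 in treated cells, against -0.30, 0.01 and -1.04 in untreated cells. The groups overlapped widely and the samples fell in each pair by a similar amount (-0.40 ± 0.06, adjusted p = 0.00489 with the block and 1 without it). Slc26a11, a sulfate transporter (-0.52 ± 0.10), Irgq (-0.44 ± 0.09), Fam83g (-0.41 ± 0.09) and Mettl27 (-0.40 ± 0.08) were the other named falls. None of the 15 was called without the block, and centring on the array median instead of the 75th percentile gave 5 falls, 0 of them among these 15.

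The higher genes lay in groups along the chromosomes. Within 200 kb, 104 of the 210 (49.5%) had another higher gene as a neighbour, in 35 groups, against 959 of 14215 other genes tested (6.75%) that had a higher gene that near, and 0 of the lower genes had a lower neighbour. RefSeq positions were used only for which genes adjoin. The largest groups held 7 genes each: Oas2 to Oas1a on chromosome 5, Trim34a to Trim30d on chromosome 7 and the H2-T genes on chromosome 17. Others were the 5 Ifit genes on chromosome 19 (2.56 to 7.07), Psmb9, Tap1, Psmb8 and Tap2 on chromosome 17 (1.70 to 3.40), Gbp5, Gbp7, Gbp3 and Gbp2 on chromosome 3 (3.48 to 5.33) and Phf11a, Phf11b, Phf11d and Phf11c on chromosome 14 (3.72 to 4.67). Many are copies of each other, whose probes may share signal, but several groups pair unrelated genes: Rsad2 with Cmpk2, Fap with Ifih1, B2m with Trim69, and Isg15 with Agrn.

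The 3 dates gave the same direction and different sizes. The median paired difference of the 210 higher genes was 1.47 in replicate 1, 2.10 in replicate 2 and 2.19 in replicate 3, and replicate 1 had the smallest difference in 172 of the 210 genes. The medians of the lower genes were -0.37, -0.38 and -0.42. Slides cross the dates: for replicates 1 and 3 an untreated array was on the slide of the treated array. Against those arrays alone the medians of the higher genes were 1.36 and 2.15. In replicate 2 the treated array was on slide 1 and both untreated arrays on slide 3, so slide and treatment cannot be told apart in that pair. With slide added as a block, limma called 300 genes higher and 106 lower.

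**Figure D4:**
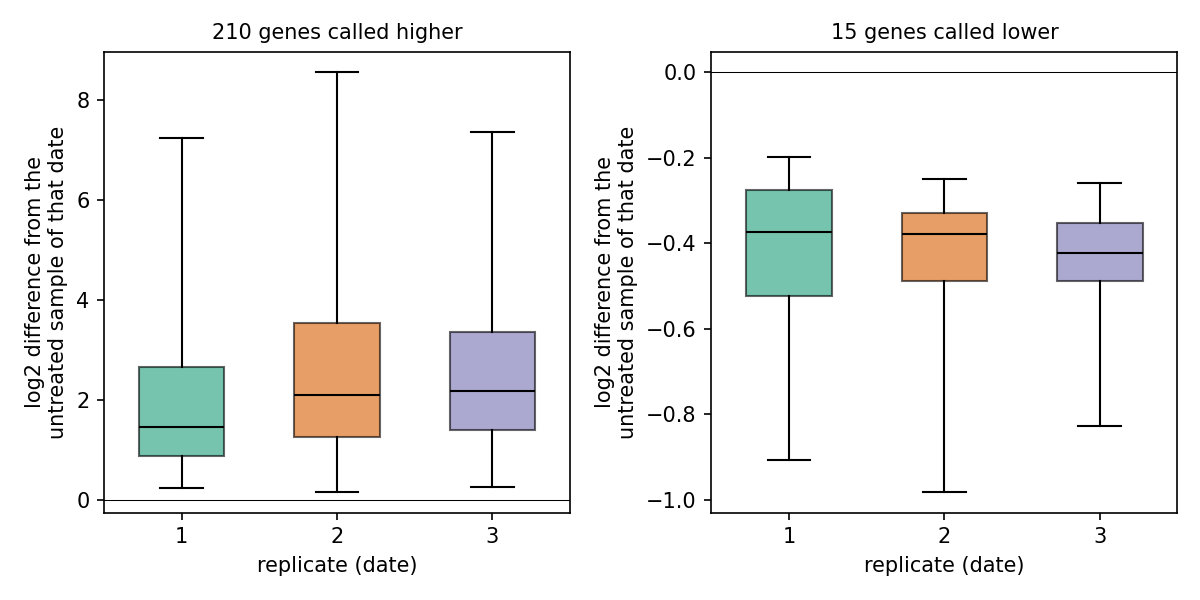
Log2 difference of each treated sample from the untreated sample of its date, for the 210 genes called higher (left) and the 15 called lower (right), with boxes at the quartiles, the median as a line and whiskers at the extremes. Replicate 1 has the lowest median of the higher genes, 1.47.

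The doses on either side differed from 100 IU/ml in 54 and in 2 genes. Between 100 and 10 IU/ml, 54 genes (0.374%) were called, all higher at 100 IU/ml and all among the 210, and without the block 9 were. Between 1000 and 100 IU/ml, 2 genes (0.0139%) were called, Angptl8 and Slc16a9, both higher at 1000 IU/ml and neither called at 100 IU/ml against untreated cells, and without the block none was. Leaving out replicate 1 or 2 left 0 genes called between 100 and 10 IU/ml and leaving out replicate 3 left 2, and with all 24 arrays 0 were called. Between 1000 and 100 IU/ml the counts without replicate 1, 2 or 3 were 3, 3 and 1, with neither Angptl8 nor Slc16a9 among them. At an unadjusted p under 0.05 the dose steps had 1394 and 1729 genes. The 100 IU/ml samples enter each of these comparisons and the one that chose the 210 genes, so the values are set side by side only: over the 210 genes the median difference was 0.99 for 100 minus 10 IU/ml and 0.51 for 1000 minus 100 IU/ml, and 210 and 201 of them were above 0. Angptl8, a regulator of lipid metabolism, had -1.66, -1.82 and -1.56 at 1000 IU/ml, against -2.27, -2.52 and -2.57 at 100 IU/ml (0.78 ± 0.10, adjusted p = 0.0457).

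Over the doses Irf9 had 2.11, 1.55 and 2.47 in untreated cells, 3.11, 3.19 and 3.51 at 10 IU/ml, 3.28, 3.46 and 3.77 at 100 IU/ml, and 3.6, 3.75 and 3.67 at 1000 IU/ml. The treated groups overlapped at neighbouring doses, and 100 minus 10 IU/ml was 0.23 ± 0.15 (adjusted p = 0.584). Gbp2 had -0.15, 0.45 and 0.59 in untreated cells, 0.55, 1.42 and 2.62 at 10 IU/ml, 3.45, 4.75 and 5.27 at 100 IU/ml, and 5.55, 5.81 and 5.79 at 1000 IU/ml. The step of 2.96 ± 0.44 up to 100 IU/ml was called (adjusted p = 0.0216) and the next of 1.23 ± 0.44 was not (0.332). Iigp1 had the largest called step, 4.61 ± 0.76 for 100 minus 10 IU/ml (adjusted p = 0.027), with -5.13, -3.59 and -2.97 at 10 IU/ml and 2.68, 3.36 and 2.91 at 1000 IU/ml. Ifit3b (3.23 ± 0.51), Ifit3 (3.30 ± 0.52), Gbp5 (3.29 ± 0.55) and Tnfsf10 (3.54 ± 0.62) were the other large steps from 10 to 100 IU/ml. By list, 10 of 19 GTPases, 12 of 42 antiviral effectors, 6 of 16 Isg15 and Trim genes and 1 of 26 MHC class I genes were called in that step. The share called over all genes tested was 0.374%. The median step of these lists was 1.79, 0.96, 1.13 and 0.63, in that order. Without the block none of the genes named for this step was called.

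At the matched dose 52 genes were called, and the call depended on which samples entered the fit. Against 100 IU/ml IFN beta, which has 2 samples, of dates 1 and 2, because the labels mark its array of date 3 as excluded, these 52 genes (0.36%) were all higher with IFN epsilon and all among the 210, and 42 of them were also called against 10 IU/ml IFN epsilon. Without the block 13 were called, and without replicate 1, 2 or 3 the counts were 0, 96 and 9, with 0, 3 and 8 of the 52 among them. Without replicate 1 or 2 there is 1 IFN beta sample, which is taken to vary like the other groups. With all 24 arrays, and with the groups compared alone, 0 genes were called. The excluded IFN beta array had a median difference from untreated cells of 2.9 over the 210 genes, against 2.19 for IFN epsilon on that date. Ifit3 had 4.04, 5.69 and 6.36 with IFN epsilon, against 0.20 and 1.70 with IFN beta (3.80 ± 0.59, adjusted p = 0.021). Iigp1 had -0.60, 1.39 and 1.37 with IFN epsilon, against -6.21 and -5.01 with IFN beta, which 1 of the 2 beta arrays had well above background (5.79 ± 0.87, adjusted p = 0.0177). Cxcl10 had 4.79, 6.33 and 6.85 with IFN epsilon, against 2.55 and 2.64 with IFN beta (3.00 ± 0.48). Irf9 (0.16 ± 0.17), Isg15 (1.20 ± 0.27, adjusted p = 0.127) and Stat2 (0.61 ± 0.26) were not called. Equal units per ml of the 2 interferons are as the labels state them, and how the units were assayed is not given in the sources used here.

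**Figure D5:**
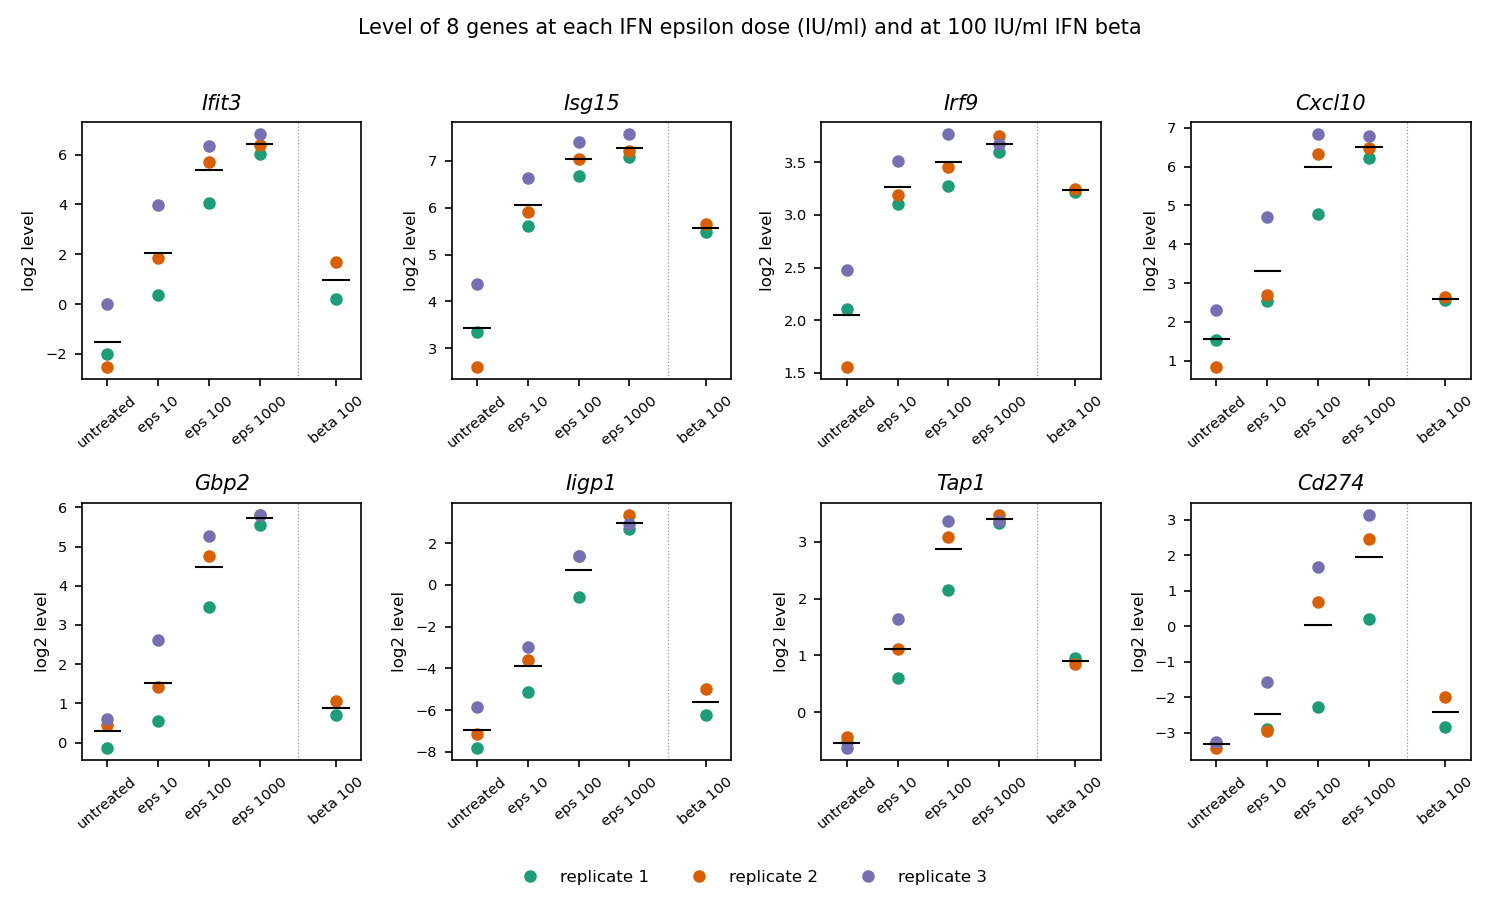
Level of 8 genes (log2 signal minus the array's 75th percentile) in each sample, with the group mean as a bar, in untreated cells, at 10, 100 and 1000 IU/ml IFN epsilon (eps) and, right of the dotted line, at 100 IU/ml IFN beta. Irf9 lies between 3.11 and 3.77 at the 3 IFN epsilon doses, Gbp2 and Iigp1 step up at 100 IU/ml, and Cd274 spreads widely at 100 and 1000 IU/ml.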

How the data were processed

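RNA of 19 samples in 7 groups was read on 22 single-colour arrays, and 2 further arrays that the labels mark as excluded entered an alternative only. The deposited processed signals are intensities from which the scanner software, Agilent Feature Extraction 11.0.1.1, had subtracted background, per the file headers. The deposited log2 values were used as an alternative: per the submitters' processing notes R 3.6.1 and limma 3.42.0 were used, every column has the same lowest and highest value, its direction and scale follow the scanner values, and the centring is not given in the sources used here. Spot and background median intensities, as deposited, served another alternative.

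Here log2 intensity minus the array's 75th percentile was taken over probe spots without outliers. RefSeq accessions named 32994 of 56605 probes, for 22911 genes, and the other 23611 stayed unnamed. Probes well above background in 2 samples of a group were kept, and the brightest probe stood for a gene. Limma 3.58.1 in R 4.3.3 (lmFit, eBayes) fitted 7 groups with the replicate number as a fixed block (10 residual degrees of freedom), adjusting by Benjamini-Hochberg over 14425 genes. Numbers mark dates, per the series' design text, and deviations of same-numbered samples correlated at 0.545, 0.684 and 0.766, against -0.61 to 0.20 for others. The steps were tested on simulated data. Plots were drawn with matplotlib 3.10.9.

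The members, the 22 lists and the rule for named genes (the 12 largest rises, 6 largest bounds and 8 largest falls, 3 called genes per list, a panel of 17, the 5 widest and 5 narrowest sets of paired differences, and the 5 largest changes against each other interferon group) were chosen with earlier results of these data known. Genes named to complete a pathway or group (such as Tlr3, Ifih1, Uba7, Tap2, Psmb8, Casp4, Mlkl, Pml and Mavs) were picked after their values were seen. Results on a few genes are not reported here. Promoter sequences are RefSeq's. Separate cultures are stated for the dates only, and 3 samples a group limit the precision.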

Additional observations from a re-analysis of the deposited data

Results flagged for a closer look

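The 2 arrays that the labels mark as excluded, IFN beta at 100 and at 10 IU/ml of replicate 3, entered only the alternative with all 24 arrays. Both carry the signal of the 210 genes called higher at 100 IU/ml IFN epsilon. Their median log2 differences from the untreated sample of the same date were 2.9 at 100 IU/ml and 2.54 at 10 IU/ml, with 210 and 209 of 210 genes above 0. The array of 100 IU/ml IFN epsilon on that date had 2.19. The IFN beta arrays of replicates 1 and 2 had 0.58 and 0.70 at 100 IU/ml and 0.19 on both dates at 10 IU/ml. The cause was not tested. Groups of 3 samples were not examined for single outlying samples.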

How the results depend on the processing

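In the order higher, lower, 100 against 10 IU/ml, 1000 against 100 IU/ml and IFN epsilon against IFN beta, the counts of 210, 15, 54, 2 and 52 became 151, 0, 9, 0 and 13 without the replicate block. They were 179, 5, 78, 30 and 70 with median scaling, 220, 25, 66, 1 and 62 with quantile normalization, 224, 33, 86, 1 and 75 with normexp, 219, 28, 66, 1 and 70 with the deposited log2 values, and 179, 4, 4, 0 and 19 with no filter on dim probes. With all 24 arrays they were 40, 1, 0, 1 and 0, with the groups compared alone 136, 6, 24, 0 and 0, with slide as a block 300, 106, 75, 2 and 79, and with the untreated array of the same slide 212, 54, 51, 0 and 51. The share of calls that were higher, 93.3%, was 97.3% with median scaling, 73.9% with the slide block and 79.7% with same-slide arrays. Leaving out 1 replicate gave 120 to 175, 1 to 6, 0 to 2, 1 to 3 and 0 to 96. Without replicate 1 or 2 the IFN beta group has 1 sample, assumed to vary like the others. The cause of these changes was not tested. Normexp was run on the median signal, a choice made after seeing the data, and the planned run on the mean signal was not run. Each of the 8 named falls lost its call under 5 to 10 alternatives. Signal over background limits 9 higher genes to bounds.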
